A study of Mus musculus with 16 samples.

Results

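Of 61240 DNase-accessible regions found in mouse liver, 238 held a peak in every TCPOBOP pool collected 3 h after injection and in no vehicle pool of that time. These 238 regions, the early-opened sites, were defined by peak calls alone: overlapping peaks of all 16 pool lists were merged, and a region was kept when it had a peak in all 4 TCPOBOP lists at 3 h (2 from males and 2 from females) and in none of the 4 vehicle lists at 3 h. The values at 3 h therefore chose the regions and are given as a description, with no test. Whether a peak was present in other mice, collected at 27 h, did not enter the rule, and the regions were followed there. The 27 h peaks did enter the merging, so they helped set the bounds of regions and which 3 h peaks fell together. The choice was also made with earlier results of these data known.

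The livers came from CD-1 mice of 7 weeks of age, injected intraperitoneally with 3 mg/kg TCPOBOP, dissolved in the vehicle, or with the vehicle alone, 1% DMSO in corn oil. The 8 groups were male or female, 3 h or 27 h, and TCPOBOP or vehicle. Each had 2 pools, and each pool held DNA of 3 to 5 mice. Each combination of sex and time has an experiment code of its own, with its own vehicle pools, so a difference between sexes or between times cannot be told apart from one between experiments. Whole liver was used, so that opening in many cells and stronger opening in few cells cannot be told apart. Errors and p-values measure the spread between pools, not between mice.

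DNase I cuts DNA where nucleosomes have been displaced, and regulatory elements such as enhancers and promoters are recovered as sites of dense cutting. TCPOBOP is a synthetic compound that activates CAR, the constitutive androstane receptor, which is found in hepatocytes. On activation this nuclear receptor moves from the cytoplasm into the nucleus, binds DNA as a heterodimer with the retinoid X receptor and induces genes of drug and steroid metabolism; in mice TCPOBOP also makes the liver grow. The comparison asks which sites opened soon after CAR activation in both sexes, and whether they were open a day later.

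The libraries were not of equal depth. At 3 h the vehicle libraries held 15679689 to 17206999 tags and the TCPOBOP libraries 18543171 to 25383943, and the lists were correspondingly shorter for vehicle (29216 to 31096 peaks) than for TCPOBOP (32791 to 39192 peaks). A rule that asks for peaks in TCPOBOP and none in vehicle is sensitive to this. With every list cut to the 29216 peaks of highest −log10 q, 96 regions met the rule, and 83 of them were among the 238. The mirrored rule, a peak in all 4 vehicle lists and in no TCPOBOP list at 3 h, found 5 regions in the whole lists and 41 in the lists of equal length. Results at 27 h are therefore also given for those 83 where they bear on a count. At 27 h the depths ran the other way in males, with 35822318 and 43618254 tags after vehicle against 28633652 and 36187819 after TCPOBOP. In females the vehicle libraries held 28624325 and 18044366 tags and the TCPOBOP libraries 25065722 and 30340709.

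The early-opened sites were mostly weak at 3 h. Height is given here as the scaled pileup, the number of extended tags over the summit per 1000000 tags of the library. In the male TCPOBOP pools the median over the 238 sites was 0.985 and 0.917, against 1.54 and 1.62 for the other regions with a peak. In the female TCPOBOP pools it was 1.01 and 1.03, against 1.55 and 1.60. Averaged over the 4 pools, the sites ran from 0.572 to 9.14 with a median of 0.986. The authors' fold enrichment over local background, which is relative to each library, averaged 2.89 to 12.9 with a median of 4.84. Only 17 sites had −log10 q of at least 10 in all 4 lists, and 17 were among the 20000 highest-ranked peaks of all 4. The sites were single peaks: 221 of 238 had exactly 1 peak in each list. The summits of the 4 lists spread over a median of 112 bp. Median width after merging was 685 bp (223 to 2074 bp), against 593 bp over all regions. Across the 238 sites the male and female log2 heights at 3 h correlated at Pearson r = 0.788 and Spearman rho = 0.741, a description over regions that share libraries. The male mean was above the female mean at 91 of 238.

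**Figure D1:**
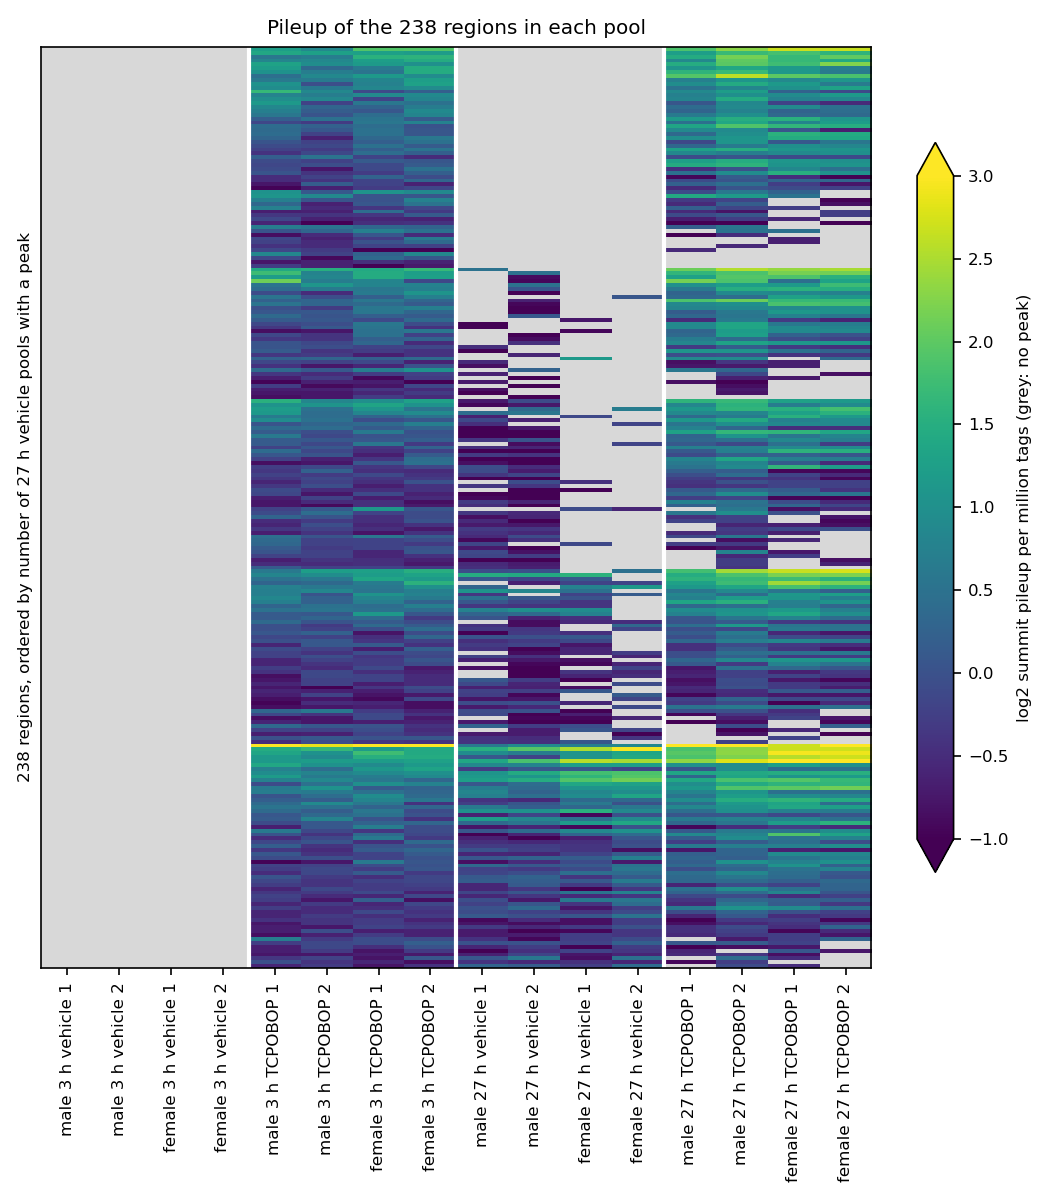
Scaled pileup of the 238 early-opened sites (lines of the picture) in the 16 pools (columns), as log2 of the summit pileup per 1000000 tags, with colours capped at the ends of the scale; grey marks a pool with no peak. Sites are ordered by how many 27 h vehicle pools had a peak and then by how many 27 h TCPOBOP pools had one. The first 4 columns are grey by the rule, and at 27 h grey is far commoner in the vehicle than in the TCPOBOP columns.

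The strongest of the early-opened sites lay on chromosome 10, 80420505 to 80421154 (mm9, as are all coordinates here). After TCPOBOP at 3 h its scaled pileup was 8.98 and 7.28 in the male pools and 11.7 and 8.57 in the female pools. At 27 h the male pools read 8.77 and 13.0 after TCPOBOP against 1.54 and 1.93 after vehicle. The site was thus still high a day after injection, although vehicle pools of that time held a small peak, and the groups did not overlap. The male rise was log2 2.50 ± 0.19 (SE, 2 against 2 pools; limma adjusted p = 2.25e-09). Here and below, the change compares 2 with 2 pools, but its SE does not come from those 4 alone. The fit shared 1 estimate of the spread over all libraries with a peak, including the 3 h TCPOBOP pools whose values chose the sites. The female pools read 6.46 and 8.24 after TCPOBOP against 1.68 and 1.83 after vehicle, a rise of log2 1.98 ± 0.19 (limma adjusted p = 9.51e-08). By the authors' fold enrichment the male rise was log2 1.29 and still called (limma adjusted p = 0.0120), and the female one log2 0.73 and not called (limma adjusted p = 0.224). The second highest mean at 3 h over the 238 was 2.94. The next 9 by their lowest −log10 q over the 4 TCPOBOP lists lay between 1.35 and 3.21 in every TCPOBOP pool of that time.

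Among those 9, 4 had peaks in all TCPOBOP pools and in no vehicle pool at 27 h, as they did at 3 h. The site on chromosome 12, 14216227 to 14217372, read 1.38 and 1.83 in males and 2.22 and 1.90 in females at 3 h. A day later it read 3.81 and 6.05 in males and 3.99 and 3.59 in females. By scaled pileup each pool at 27 h was thus above each pool at 3 h. By fold enrichment this did not hold in females, at 11.1 and 8.78 at 3 h and 10.8 and 10.6 at 27 h. The site on chromosome 4, 19237874 to 19239234, read 1.50 and 1.62 in males and 2.95 and 3.01 in females at 3 h. At 27 h it read 2.76 and 4.50 in males and 3.19 and 4.05 in females. By scaled pileup, which is not centred, both pools at 27 h were above both at 3 h in each sex. By fold enrichment the female pools went the other way, at 11.4 and 13.1 at 3 h and 9.25 and 11.3 at 27 h. The site on chromosome 2, 130750540 to 130751141, read 2.31 to 2.64 over the 3 h pools and 2.37 to 3.55 over the 27 h pools. Its female pools were higher at 27 h by scaled pileup, at 2.41 and 2.31 and then 3.55 and 3.03. By fold enrichment they were lower at 27 h, at 6.20 and 5.52 and then 3.84 and 3.38. The site on chromosome 16, 14059190 to 14059873, read 1.45 to 2.76 at 3 h. A day later its male pools read 3.04 and 3.26 and its female pools 2.19 and 1.58. None of these 4 has a vehicle height in the lists, so no change could be computed from called peaks.

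The remaining 5 of the 9 showed peaks in some vehicle pools at 27 h. On chromosome 5, 30912400 to 30913093 read 0.530 and 0.596 in the male vehicle pools and 1.78 and 2.96 after TCPOBOP, a rise of log2 1.90 ± 0.24 (SE, 2 against 2 pools; limma adjusted p = 2.39e-05). On chromosome 2, 17661750 to 17662971 read 0.614 and 0.940 against 3.04 and 3.21, a rise of log2 1.91 ± 0.25 (limma adjusted p = 2.74e-05) that was not called by fold enrichment (log2 0.79, limma adjusted p = 0.130). Neither had a peak in a female vehicle pool, while both had one in each female TCPOBOP pool, at 1.60 and 1.88 and at 2.43 and 2.24. On chromosome 4, 25298813 to 25299549 had 1 vehicle peak, of 0.550 in a male pool, against 2.44 to 3.81 in the 4 TCPOBOP pools. The site on chromosome 3, 67115124 to 67115981, stood apart from the rest of the 10. It read 0.810 and 1.05 after vehicle and 1.01 and 1.93 after TCPOBOP in males, and its male pools overlapped. In females it read 1.05 and 0.887 after vehicle and 1.32 and 1.42 after TCPOBOP, with no overlap. The change was log2 0.47 ± 0.26 in males (limma adjusted p = 0.553) and 0.42 ± 0.26 in females (limma adjusted p = 0.409), neither past the threshold of 0.05.

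The last of the 10, on chromosome 9, 106133118 to 106135191, was the widest of the 238 at 2074 bp. It read 2.68 and 2.86 in males and 2.66 and 3.21 in females at 3 h. At 27 h it read 4.30 and 5.80 in males and 5.19 and 5.54 in females, with a single vehicle peak of 1.42 in a male pool. At a distance of 3184 bp lay 1 of the 5 regions that met the mirrored rule, chromosome 9, 106138375 to 106138863. That region had a peak in all 4 vehicle pools and in no TCPOBOP pool at 3 h, and it had the same pattern at 27 h. It was the only one of the 5 with that pattern at 27 h, and the other 4 lay more than 1000 kb from any early-opened site.

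**Figure D2:**
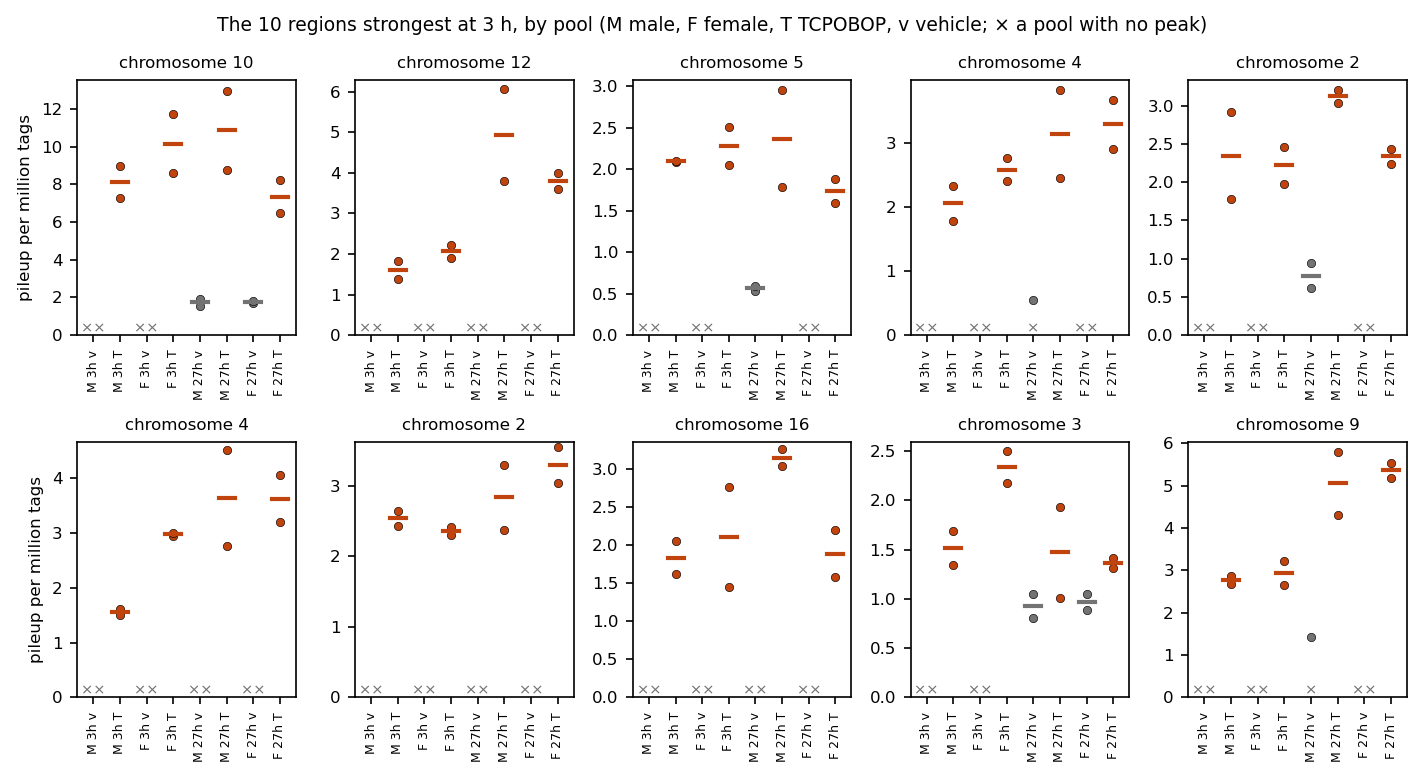
Scaled pileup (extended tags over the summit per 1000000 tags) of the 10 early-opened sites with the highest −log10 q, 1 panel each, in the 8 groups. Points are pools, short lines the mean of 2 pools, and a cross marks a pool with no peak; each vertical axis starts at 0. In 9 of the 10 panels all 27 h TCPOBOP points lie above any vehicle points of the same sex, the panel of chromosome 3 being the exception, in males only.

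Most early-opened sites were still called after TCPOBOP at 27 h. In the male TCPOBOP pools 206 (86.6%) and 228 (95.8%) of the 238 held a peak, and in the female ones 204 (85.7%) and 194 (81.5%). In the vehicle pools of that time 145 (60.9%) and 160 (67.2%) did in males and 100 (42.0%) and 84 (35.3%) in females. Of all 61240 regions, 60.3 and 72.3% held a peak in the male TCPOBOP pools and 66.1 and 69.4% in the male vehicle pools. In females all regions had the same order as the sites, with less distance, at 60.9 and 61.6% after TCPOBOP and 58.0 and 49.0% after vehicle. Another reference, alike only in the number of lists, is the 2522 other regions that also had a peak in 4 of the 8 lists at 3 h, with at least 1 list of each treatment. By that definition they held fewer TCPOBOP and more vehicle lists at 3 h than the sites, which bears on their counts at 27 h. They were not matched on height, and 81.3% of them had a peak in male 3 h TCPOBOP pool 1, the deepest library of that time. Of these, 71.7 and 85.5% had a peak in the male TCPOBOP pools at 27 h and 82.8 and 83.3% in the male vehicle pools. In females 55.3 and 57.8% did after TCPOBOP and 54.7 and 38.3% after vehicle.

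Taking the 8 lists at 27 h together, 174 of 238 sites (73.1%) held a peak in all 4 TCPOBOP lists, against 47.3% of all regions and 38.8% of the 2522. Fewer, 57 (23.9%), held a peak in no vehicle list, against 18.6% and 6.50%. Both conditions held at 37 sites (15.5%), which kept at 27 h the full pattern that chose them at 3 h. Over all regions 352 had that pattern at 27 h (0.575%), and among the 2522 it was 7 (0.278%). More TCPOBOP than vehicle lists held a peak at 154 sites (64.7%), fewer at 15 (6.30%) and as many at 69. For the 2522 regions more did so at 29.4% and fewer at 22.4%, and for all regions at 26.2% and 18.6%. These counts are given without a test. A peak in all 8 lists at 27 h was found at 50 sites, so that at these the 27 h vehicle livers were also called open.

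How many vehicle lists held a peak moved with the length of the lists. The 27 h lists were longer than the 3 h vehicle lists, 32596 to 46281 peaks. With the 27 h lists cut to 29216 peaks, 114 sites had a peak in all 4 TCPOBOP lists, 124 in no vehicle list and 61 met both conditions. Of the 83 sites that also met the rule at equal length, 71 had a peak in all 4 TCPOBOP lists at 27 h and 26 had none in vehicle. No share of all regions was set beside the counts for cut lists or for the 83. They show how far the counts moved and are not a result about the sites. Within single experiments, 52 sites (21.8%) had a peak in both male TCPOBOP pools and neither male vehicle pool at 27 h, against 1.90% of all regions. In females it was 81 (34.0%), against 4.63%. The reverse, both vehicle pools and no TCPOBOP pool, occurred at 1 site in males and 1 in females (0.420% each). Of all regions 1.98% in males and 0.967% in females had that reverse pattern, so it was rare everywhere.

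**Figure D3:**
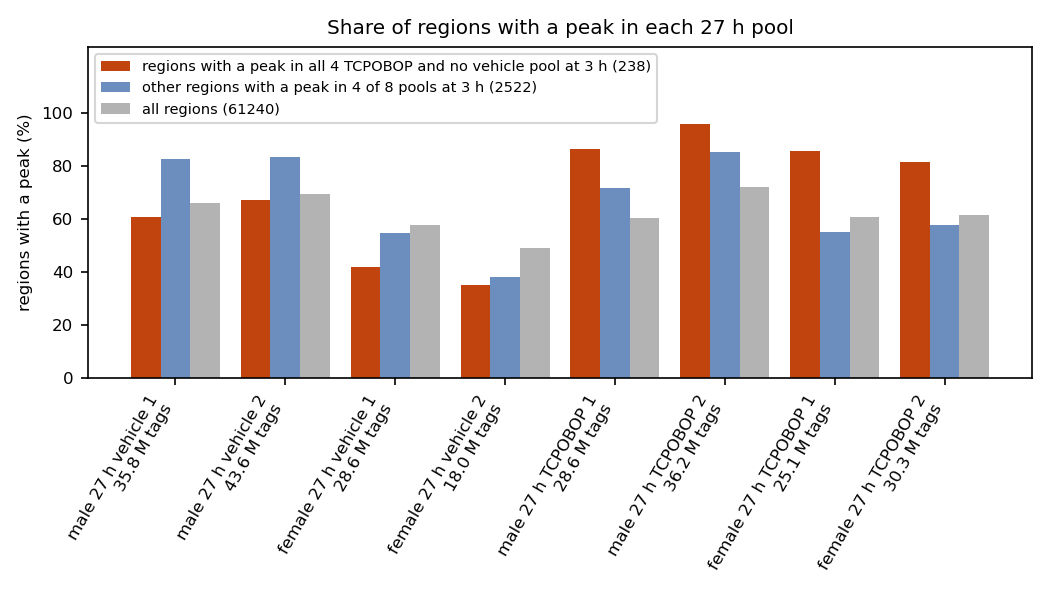
Share of regions with a peak (per cent, axis from 0) in each of the 8 pools at 27 h, for the 238 early-opened sites, the 2522 other regions with a peak in 4 of 8 pools at 3 h and all 61240 regions; total tags are printed under each pool. The early-opened sites reach 81.5 to 95.8% in the TCPOBOP pools and 35.3 to 67.2% in the vehicle pools.

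Among the early-opened sites, height at 3 h went with what was found at 27 h. Other regions of like height or −log10 q were not split or correlated in this way. Whether the link is particular to these sites was therefore not tested. The 37 sites with all TCPOBOP peaks and no vehicle peak at 27 h had a median scaled pileup of 1.27 at 3 h and 1.99 at 27 h. The 87 sites with all TCPOBOP peaks and 1 to 3 vehicle peaks had medians of 1.02 and 1.51, and the 50 with all 8 peaks had 0.991 and 1.51, with 1.12 in the vehicle pools. The 60 sites with a peak at 27 h but in fewer than 4 TCPOBOP lists had 0.827 at 3 h. Split into 4 parts by their lowest −log10 q at 3 h, 35 of 60, 39 of 59, 48 of 59 and 52 of 60 sites, from weakest to strongest, had a peak in all 4 TCPOBOP lists at 27 h. The full pattern at 27 h was concentrated at the top, with 5, 6, 5 and 21 sites. Over the 174 sites with all 4 TCPOBOP peaks at 27 h, log2 height at 3 h and 27 h correlated at r = 0.809 and rho = 0.792, again a description over regions.

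Summits lay close together at both times. Those of 832 peaks in the 27 h TCPOBOP lists lay a median of 37.3 bp from the median summit of the site at 3 h, and 81.5% lay within 100 bp. The 489 vehicle peaks of 27 h at these sites lay a median of 43.0 bp away, 73.4% within 100 bp.

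At 4 sites (1.68%) no list had a peak at 27 h, against 5.37% of all regions and 3.33% of the 2522 reference regions, so it was rare everywhere. The strongest of them at 3 h was on chromosome 13, 74621680 to 74621902, the narrowest of the 238 at 223 bp, with 1.81 and 0.863 in males and 1.21 and 1.80 in females. The other three, on chromosome 4, 40622840 to 40623331, on chromosome 3, 151576831 to 151577199, and on chromosome 2, 152520216 to 152520686, lay between 0.483 and 1.30 in every 3 h TCPOBOP pool.

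Signal was then tested at 27 h with limma on log2 scaled pileup, fitted over all regions, with p-values adjusted by the Benjamini-Hochberg method over all regions tested. A region entered a comparison when all 4 of its pools held a peak. This leaves out sites with a peak in fewer than 2 vehicle pools of that sex, among them 6 of the 10 strongest in males and 8 in females. In males 113 of the 238 early-opened sites could be tested and 28 rose (24.8%), against 1.67% of the 31915 regions tested, while 0 fell, against 0.404%. At an unadjusted p under 0.05 it was 44 higher and 1 lower, against 1953 higher and 1547 lower of the 31915 regions. The change was above 0 at 83 of 113 (73.5%; all regions 47.8%), with a median of log2 0.32 (all regions −0.01). The rises of the 28 ran from log2 0.82 to 2.66 with a median of 1.47, or 2.78-fold. In all 28 both TCPOBOP pools were above both vehicle pools, which a call made on the same pools nearly ensures. Median height over the 28 was 1.80 under TCPOBOP and 0.651 under vehicle. The 2522 reference regions gave 20 higher of 1537 tested (1.30%).

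In females 62 sites could be tested and 15 rose (24.2%), against 3.6% of the 25502 regions tested, while 0 fell, against 2.81%. At an unadjusted p under 0.05 it was 19 higher and 4 lower, against 2192 higher and 2599 lower of the 25502 regions. The change was above 0 at 37 of 62 (59.7%; all regions 43.5%), with a median of log2 0.10 (all regions −0.05). The 15 rises ran from log2 0.79 to 2.40 with a median of 1.13, or 2.19-fold. Again the pools did not overlap at any of them, which the call on the same pools nearly ensures. Median height over the 15 was 2.52 under TCPOBOP and 0.991 under vehicle. Among the 2522 reference regions 13 of 682 (1.91%) were higher. The lowest p among sites with a change below 0 was on chromosome 7, 148618263 to 148619115, named here after its values were seen. It read 3.07 and 3.82 after vehicle and 2.07 and 2.27 after TCPOBOP, log2 −0.74 ± 0.23 (SE, 2 against 2 pools; limma adjusted p = 0.0550). It was called lower in a fit with the pool number as a block (limma adjusted p = 0.0427) and with the spread of the 4 libraries alone (limma adjusted p = 0.0251).

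These counts rest on few pools, on the scaling and on the list lengths. Of the 83 sites that also met the rule at equal length, 15 of 33 tested were higher in males (45.5%) and 3 of 18 in females (16.7%). For the rest of the 238 it was 13 of 80 (16.3%) and 12 of 44 (27.3%), so that the order of the shares was opposite in the sexes. Without male TCPOBOP pool 1 or 2 the male calls were 16 and 17 (0.609% and 0.682% of all regions tested); without female vehicle pool 1 or female TCPOBOP pool 1 or 2 the female calls were 7, 5 and 8 (2.00%, 1.75% and 1.53%). With the authors' fold enrichment in place of scaled pileup, 9 male and 0 female sites were called, while of all regions tested 0.175% and 0.129% were called higher.

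**Figure D4:**
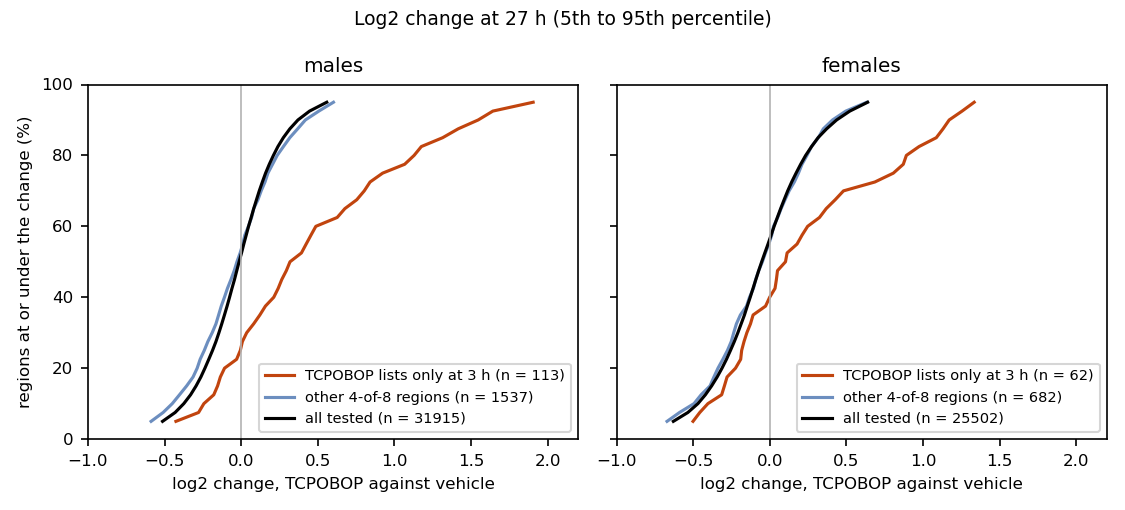
Share of regions (per cent, vertical) at or under a given log2 change of scaled pileup, TCPOBOP against vehicle at 27 h (horizontal), between the 5th and 95th percentile, for the testable early-opened sites (113 in males, 62 in females), the testable reference regions and all regions tested. The curve of the early-opened sites lies to the right of the others, with a median of log2 0.32 in males and 0.10 in females.

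The named sites gave 15 calls at 27 h, counting males and females apart, and by the authors' fold enrichment 12 of them were lost. The 3 kept were all in males, on chromosome 10, on chromosome 5, 30912400 to 30913093 (log2 0.96, limma adjusted p = 0.0239), and on chromosome 6, 85876779 to 85878285 (log2 1.13, limma adjusted p = 0.0308). The values by scaled pileup that follow are therefore to be read with that loss in view. Beside the site on chromosome 10, the lowest p-values at 27 h were at the following sites. In males the largest was on chromosome 19, 58800789 to 58802186, which read 0.447 and 0.367 after vehicle and 2.48 and 3.15 after TCPOBOP, log2 2.66 ± 0.26 (SE, 2 against 2 pools; limma adjusted p = 3.32e-07). By fold enrichment it was log2 0.90 (limma adjusted p = 0.109). At 3 h this site had been of about median height or a little above, at 0.971 to 1.55 in the TCPOBOP pools. In females it had no vehicle peak and read 3.07 and 2.57 after TCPOBOP. Another early-opened site lay 834 bp away, the closest pair of the 238. On chromosome 6, 85876779 to 85878285 read 0.949 and 0.986 against 3.46 and 5.47 in males, log2 2.04 ± 0.23 (limma adjusted p = 3.60e-06). In females it read 6.26 and 6.76 after TCPOBOP, with a peak of 1.39 in 1 vehicle pool.

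On chromosome 5, 136158349 to 136159308 rose in both sexes. It read 1.06 and 0.871 against 3.63 and 4.67 in males, log2 1.97 ± 0.20 (SE, 2 against 2 pools; limma adjusted p = 3.49e-07), and 2.096 and 2.66 against 5.86 and 6.46 in females, log2 1.30 ± 0.20 (adjusted p = 9.91e-05). By fold enrichment these were log2 0.76 and 0.34 (limma adjusted p = 0.164 and 0.669). A site on the same chromosome, 140679979 to 140680789, read 1.93 and 1.63 against 3.91 and 5.00 in males, log2 1.19 ± 0.19 (limma adjusted p = 0.000371). In females it read 2.096 and 2.55 against 7.74 and 7.45, log2 1.63 ± 0.19 (limma adjusted p = 2.19e-06). By fold enrichment the change was log2 0.22 in males and of opposite sign in females, −0.13, neither called. On chromosome 1, 53117135 to 53117843 read 0.754 and 0.688 against 1.96 and 2.82 in males and 1.29 and 1.27 against 3.07 and 2.77 in females. Its changes were log2 1.58 ± 0.23 (limma adjusted p = 0.000118) and 1.10 ± 0.23 (limma adjusted p = 0.00330), and by fold enrichment log2 0.76 and 0.22 (limma adjusted p = 0.126 and 0.833). The female call there was just missed without female TCPOBOP pool 1 (limma adjusted p = 0.05004).

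The largest female change lay in a cluster on chromosome 6. The site 87165999 to 87166722 read 0.873 and 0.887 after vehicle and 5.39 and 4.48 after TCPOBOP, log2 2.40 ± 0.25 (SE, 2 against 2 pools; limma adjusted p = 5.06e-07). By fold enrichment it was log2 0.10 (limma adjusted p = 0.951). A second early-opened site, 87157476 to 87158021, lay 7978 bp away and read 0.524 and 0.665 against 1.72 and 1.45, log2 1.34 ± 0.29 (limma adjusted p = 0.00436). That call was lost without female vehicle pool 1 or female TCPOBOP pool 1 (limma adjusted p = 0.0814 and 0.0584), and by fold enrichment (log2 0.70, limma adjusted p = 0.255). Neither could be tested in males, where each had 1 vehicle peak, of 0.642 and 0.527, beside 2.44 and 3.34 and beside 1.08 and 0.801 after TCPOBOP. Between both lay a region with vehicle peaks at 3 h, 87163080 to 87164058, which rose by log2 1.75 in males and 2.14 in females.

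Males and females were compared where both could be tested. Of the 50 sites with a peak in all 8 lists at 27 h, 7 were called higher in both sexes, which is 77.8% of the 9 called in males and 63.6% of the 11 called in females. Of all 24213 regions tested in both sexes 1.14% were called higher in both. At 25 the change was above 0 in both sexes, at 9 below 0 in both and at 16 of opposite sign. The changes of males and females, which do not share vehicle pools, correlated at r = 0.859 and rho = 0.733 over these 50 sites, a description over regions. The difference of the changes was itself tested: limma called 0 of the 50 sites, against 0.00826% of all 24213 regions tested. At an unadjusted p under 0.05 it was 3 sites, each with the smaller change in females. Of all 24213 regions, 637 had the smaller and 557 the larger change in females at that level, so 3 of 50 is near the background. The difference between sexes had a median SE of 0.38 on the log2 scale at these sites, so that this does not show that the sexes responded alike. Over both sexes 125 of 238 sites could be tested in at least 1 and 36 were called higher in at least 1, against 3.54% of the 33204 regions so tested.

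Other regions close to the early-opened sites rose as well. Within 10 kb of the 238 sites lay 454 regions that did not meet the rule. In males 26 of the 250 that could be tested (10.4%) were higher at 27 h and 0 lower. In females 42 of 204 (20.6%) were higher and 3 lower. From 10 to 100 kb the share was 3.39% of 1150 regions in males and 6.42% of 934 in females, and farther away it was 1.44% of 30402 and 3.30% of 24302. In all 48 such regions within 10 kb were higher, 20 of them in both sexes, beside 40 of the 238 sites. On chromosome 10, 80421722 to 80422333, at 568 bp from the strongest site, rose by log2 1.67 in males and 1.64 in females. On chromosome 5, 123148150 to 123148999 rose by log2 1.47 in males and 2.63 in females. Both were chosen for mention after their values were seen.

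**Figure D5:**
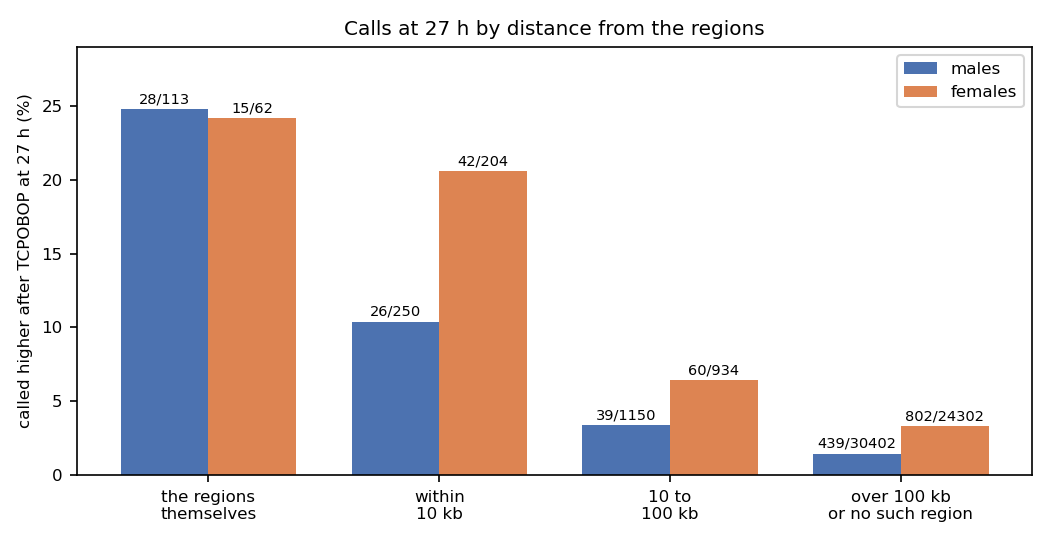
Share of testable regions called higher after TCPOBOP at 27 h (per cent, axis from 0) for the early-opened sites themselves and for other regions by distance to the nearest of them, in males and females; higher and tested regions are printed over each bar. The share falls from 10.4% and 20.6% within 10 kb to 1.44% and 3.30% beyond 100 kb.

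Along the genome the sites were scattered. Among the autosomes they made up from 0.264% of regions (chromosome 16) to 0.605% (chromosome 17), and 5 of the 1239 regions of the X chromosome (0.404%). The median distance to the nearest other early-opened site was 3355225 bp, and 16 sites had another within 100 kb, in 8 pairs. A region open in all 16 lists lay within 10 kb of 102 sites, and the median distance to one was 13998 bp. No other region at all lay within 10 kb of 55 sites.

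The rule has a threshold, with sites close to it on both sides. The 3 sites just inside, by their lowest −log10 q (2.03 at the weakest), were on chromosome 9, 116241380 to 116241982, on chromosome 12, 78027326 to 78028242, and on chromosome 15, 66751682 to 66752228. They read 0.485 to 0.952 in the 3 h TCPOBOP pools. The first of them read 0.726 and 0.436 after vehicle and 1.19 and 1.38 after TCPOBOP in males at 27 h, log2 1.06 ± 0.28 (SE, 2 against 2 pools; limma adjusted p = 0.0453). That call was lost without male vehicle pool 2 or either male TCPOBOP pool, by limma with adjusted p of 0.159 to 0.585, with centring on the 5000 highest regions (0.0675) and by fold enrichment (0.619). The second changed by log2 0.25 ± 0.26 in males (limma adjusted p = 0.879), and the third had no vehicle peak at 27 h.

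Outside the rule by 1 list were 471 regions with 4 TCPOBOP lists and 1 vehicle list, with a median lowest −log10 q of 4.80 over the TCPOBOP lists, next to 4.78 for the 238. A further 566 had 3 TCPOBOP lists and no vehicle list. The strongest that missed were on chromosome 7, 26681892 to 26682863, chromosome 19, 39358788 to 39359596, and chromosome 4, 117004869 to 117005675. Each failed through a peak in female vehicle pool 2, of 0.863, 1.36 and 0.863, with −log10 q of 3.87, 5.15 and 6.41. After TCPOBOP at 3 h the first read 4.75 to 7.22, the second 3.90 to 5.66 and the third 2.37 to 5.26, so that all 3 stood above most of the 238. The early-opened sites are thus those with no called peak in any vehicle pool, and some strong sites at 3 h are not among them. The strongest of the 238, on chromosome 10, had a lowest −log10 q of 65.5, against 43.1 for the first of these 3.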

How the data were processed

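DNase-seq peak lists of 16 liver pools, 8 groups of 2, were used. Per the labels' protocols, fragments of 125 to 400 bp were selected, and the 27 h libraries were used as single reads. Per the submitters' processing notes, Bowtie aligned the reads, and the genome build was mm9. Peaks were called by the authors per pool with MACS 2.1.0.20150731 at a q-value of 0.05, with no control, all duplicates kept, a shift of 100 bp and an extension to 200 bp, per the file headers. The deposited pileup is a signal not scaled to depth, the deposited fold enrichment a ratio to local background, and the deposited −log10 p-value and −log10 q-value are the authors' own; they rank and filter peaks within a list, and values over lists are descriptions. Numbers missing from the lists show that peaks had been removed; no source used here gives that filter. The heading of 1 list (female 27 h TCPOBOP pool 2) carries the code of another experiment, while its command and peak names carry its own, and it was used as the latter.

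Peaks overlapping by at least 1 bp were merged. For each region the highest pileup per pool was scaled to 1000000 tags, taken as log2 and centred per library on the median of the 18443 regions with a peak in all 16 lists; printed pool values are scaled but not centred. limma 3.58.1 in R 4.3.3 fitted treatment within each of the 4 experiments over all 16 libraries, with a mean trend; its code was tested on simulated data. With 2 pools per group p-values measure the spread between pools. Pool numbers did not pair pools. Overlaps used Python 3.11.15, numpy 2.4.6 and pandas 2.3.3. The members and lists were chosen with earlier results of these data known. Sites named are the 10 with the highest lowest −log10 q at 3 h, the 6 of lowest adjusted p at 27 h in each sex, the 4 strongest with the full pattern and the 4 with no peak at 27 h, 3 just inside the rule and 3 just outside; exceptions are stated. No mm9 genome or annotation was used here, so sites carry no gene names or sequences, and the gene and cell type marker lists were not applied.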

Additional observations from a re-analysis of the deposited data

How the results depend on the processing

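The number of early-opened sites, 238, was 237 with 50% overlap, 219 or 235 with −log10 q of at least 3 in the TCPOBOP lists or in every list, 96 at equal list length, and 304 to 473 when 1 pool was left out of the rule, which leaves out 1 condition. At 27 h, the sites with a peak in all 4 TCPOBOP lists, in no vehicle list and with both numbered 174, 57 and 37. They were 135, 102 and 56 with the lists cut to the shortest 27 h list, 114, 124 and 61 at 29216 peaks, and 174 to 187, 57 to 76 and 37 to 52 without 1 pool. No share of all regions was set beside these alternatives. The sites called higher at 27 h, 28 in males and 15 in females, were 92 of 220 tested and 88 of 187 when pools with no peak were filled with the 5th percentile of their list (2.03% and 5.07% of all regions), a fill that itself makes absent peaks low. They were 9 and 12 among regions with a peak in all 8 lists (fewer sites tested), 9 and 0 with fold enrichment (the cause was not tested), and 16 to 25 and 5 to 17 without 1 pool (0.609 to 0.841% and 1.53 to 2.63% of all regions). No male site and no female site was called lower by limma in these, save 1 in females (chromosome 7, 148618263 to 148619115) with the block (adjusted p = 0.0427) or with the spread of the 4 libraries alone (adjusted p = 0.0251). The sites whose change differed between sexes were 0, or 1 of 184 with filled pools.

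Without any 1 of the 4 pools, 14 of the 28 male and 4 of the 15 female calls were kept. With no centring the calls were 33 and 15, and on the 5000 highest regions 26 and 15. Of all calls, 80.5% were higher in males and 56.2% in females, against 93.5% and 73.8% with no centring, which moved the median of all regions to log2 0.11 in males, and 77.0% and 66.7% on the 5000 highest. The 15 calls at named sites were recomputed 173 times and lost 19 times, 12 of them by fold enrichment, where 1 also reversed, to −0.13 on chromosome 5, 140679979 to 140680789, in females. Same-numbered pools deviated with correlations of −0.03 to 0.06, and a fit with the pool number as a block called 31 male and 15 female sites. Where a pool has no peak, the lists give no height, so that weak vehicle signal below the threshold was not measured.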

Other observations

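At 1 early-opened site the filled values gave a difference between sexes that the called peaks could not test: chromosome 9, 110890569 to 110891038, female minus male change log2 1.88 ± 0.36 (limma adjusted p = 0.0457). This rests on pools with no peak set to a low value.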
